A study of Mus musculus with 9 samples.

Results

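Plxdc2, Dpyd, Lancl3, Mmp15, Adam12 and Arhgap26 are 6 genes that lost acetylation of histone H3 at lysine 27 (H3K27ac) in oligodendrocytes (OLs) compared with oligodendrocyte progenitor cells (OPCs), and none of them is a usual marker of this lineage. They were picked for that loss among 21887 protein-coding genes, so their OL and OPC values of H3K27ac are a description of that choice, and no SE or call on them is read as evidence. Chromatin immunoprecipitation followed by sequencing was done in O1-positive OLs and in OPCs, both made from mouse epiblast stem cells of the lines 129O1 and EpiSC5, whose strains of origin are 129SvEv and 129S1/SvImJ. OPCs were grown with bFGF and PDGFA and sorted for CD140a and NG2, and magnetic sorting by autoMACS was used at harvest of OLs and OPCs. There were 4 H3K27ac peak lists, from OL and OPC of each line. There were 3 SOX6 lists, from OL of EpiSC5 alone and from OPC of each line. Each line and state was thus represented by 1 library per target, and the 2 lines served as the replicates. No gene deletion or transgene is named in the labels of these samples.

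H3K27ac is deposited by acetyltransferases at nucleosomes of active promoters and enhancers and is removed by deacetylases, so its presence marks regulatory DNA in use. SOX6 is a transcription factor of the SOXD group, which lacks an activation domain of its own and is known in the oligodendrocyte lineage for holding back terminal differentiation. The 6 genes come from separate gene families. Plxdc2 encodes a single-pass membrane protein with a plexin-type domain, known in the mouse as a mitogen for neural progenitors. Dpyd encodes dihydropyrimidine dehydrogenase, the rate-limiting enzyme of uracil and thymine breakdown. Lancl3 belongs to a small family related to bacterial lanthionine synthetase C. Mmp15 encodes a membrane-type matrix metalloproteinase and Adam12 a disintegrin and metalloproteinase that sheds membrane proteins. Arhgap26 encodes GRAF1, a BAR-domain protein that takes part in clathrin-independent endocytosis.

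On chromosomes 1 to 19, X and Y, the H3K27ac lists held 33738 and 31005 peaks in OL of 129O1 and EpiSC5, against 30829 and 27721 in OPC. They covered 50.9 and 43.5 Mb in OL, against 48.7 and 37.2 Mb in OPC. The SOX6 list held 3893 peaks in OL of EpiSC5, against 22876 and 15487 in OPC of 129O1 and EpiSC5. Read counts are not part of the lists, and sequencing depth is therefore unknown. Summed over 8 oligodendrocyte marker genes with 10 kb on each side, H3K27ac peaks covered 95.1 and 120 kb in OL, against 26.7 and 18.1 in OPC. Over 7 OPC marker genes they covered 68.1 and 55.3 kb in OL, against 93.5 and 75.0 in OPC, and the members of that list differed. Pdgfra, the gene of CD140a, had 2.55 and 1.54 kb in OL, against 15.2 and 13.1 in OPC, and Ptprz1 had 5.97 and 4.21 kb, against 18.5 and 16.3 kb. Gpr17 and Sox10 were higher in OL than in OPC of the same line in both lines. Of 6 fibroblast and pericyte markers, Col1a2, Pdgfrb, Rgs5, Dcn and Lum were at 0 in all 4 lists, and the summed length of the list was 0.372 and 1.31 kb in OL, against 3.92 and 2.55 in OPC. Cx3cr1 and Itgam of the 6 microglia markers and Foxd3 and Ngfr of the 6 Schwann cell markers were also at 0 in all 4. The microglia marker Csf1r had 2.78 and 1.68 kb in OL, against 0 and 0 in OPC. Aif1, Tmem119 and P2ry12 were covered in all 4 lists. The microglia list summed to 8.16 and 5.16 kb in OL, against 5.79 and 5.13 in OPC, and the Schwann cell list to 22.3 and 19.3 kb, against 26.7 and 20.9 kb. Markers of astrocytes summed to 34.0 and 18.0 kb in OL, against 32.2 and 25.7 in OPC. Markers of neurons summed to 40.3 and 26.1 kb in OL, against 53.7 and 44.4 in OPC, and 0 of 6 were at 0 in all 4 lists. Most of the OPC length came from Map2, with 15.5 and 9.09 kb in OL, against 37.4 and 31.0 in OPC. Elavl3 went the other way, with 7.94 and 6.78 kb in OL, against 2.46 and 1.81 in OPC. Snap25 and Tubb3 were lower in OL in both lines, and Rbfox3 and Syt1 differed between the lines. Markers of pluripotent cells summed to 17.4 and 14.7 kb in OL, against 22.8 and 17.3 in OPC. Most of that length came from Sox2, with 14.8 and 14.5 kb in OL, against 16.6 and 14.6 in OPC. Sox2 is also in the Schwann cell list and makes up most of its sums. The part of these other cell types in the values of the 6 genes was not tested.

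For each gene the length covered by H3K27ac peaks was taken over the gene body and 50 kb on each side. These lengths, before any scaling, show how far acetylation had receded in OL. Plxdc2 (chromosome 2, 16355740 to 16761132, mm10) had 1.79 kb covered in OL of 129O1 and 0.363 kb in OL of EpiSC5, against 15.6 and 9.73 in OPC of the same lines. Dpyd (chromosome 3, 118562109 to 119432924), an 871 kb gene, had 0.625 and 0.207 kb in OL, against 9.99 and 7.37 in OPC. These were the largest losses of the 6 by the mean log2 change given further on. In each case a single short region was all that both OL lists still held in common. Lancl3 (chromosome X, 9199973 to 9268085) had no peak in OL of 129O1 and 1.19 kb in OL of EpiSC5, against 5.67 and 4.87 in OPC.

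The remaining 3 genes kept more of the mark. Mmp15 (chromosome 8, 95352296 to 95374293), the shortest of the 6 at 22.0 kb, had 5.20 and 4.10 kb in OL, against 15.9 and 11.4 in OPC. Adam12 (chromosome 7, 133883199 to 134225097) had 3.64 and 4.17 kb in OL, against 12.6 and 9.64 in OPC. Arhgap26 (chromosome 18, 38601617 to 39376285) had 13.7 and 6.55 kb in OL, against 42.7 and 29.6 in OPC, the most kb of the 6 in every list. At all 6 genes both OL values lay below both OPC values. With the lists scaled to the same total, as described further on, this still held at all 6. On that scale it also held at 47.7% of the 16275 genes tested. Bulk lists of this kind cannot tell fewer cells with the mark from less mark per cell. Relative to the window, Mmp15 was the densest, with 4.26% and 3.36% covered in OL, against 13.1% and 9.31% in OPC. Its density in OPC was above that of 96.8% of genes in 129O1 and 95.2% in EpiSC5. Dpyd was the sparsest of the 6 in both OPC lists, with 0.0644% and 0.0213% of its window covered in OL, against 1.03% and 0.760% in OPC. Its OPC density was above that of only 27.9% and 28.6% of genes. The 6 genes therefore started from very different densities in OPC.

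**Figure D1:**
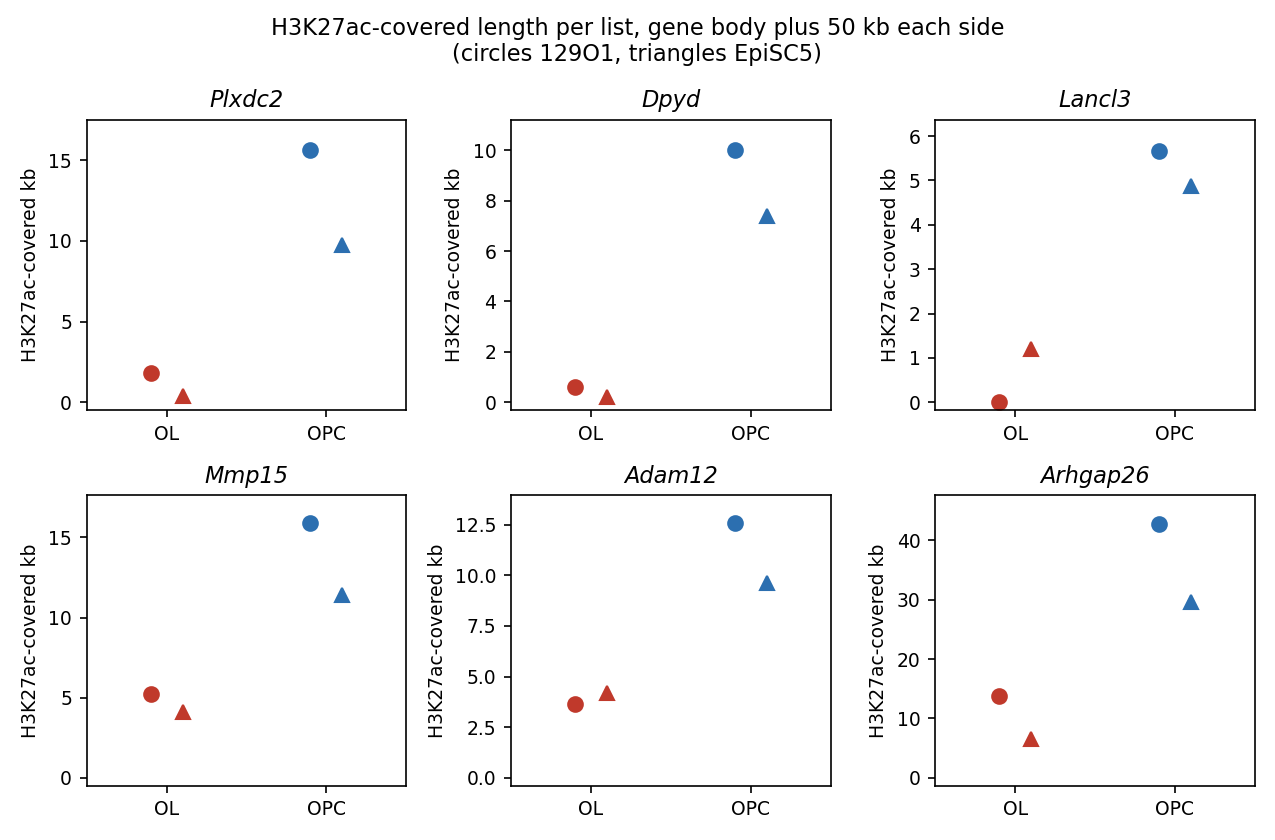
Length covered by H3K27ac peaks (kb, vertical axis) in the gene body plus 50 kb each side for the 6 genes, with 1 point per list, OL left of OPC and the lines 129O1 and EpiSC5 marked separately. Every OL point lies below both OPC points of the same gene, from 0 to 1.19 kb against 4.87 to 5.67 kb at Lancl3 up to 6.55 to 13.7 kb against 29.6 to 42.7 kb at Arhgap26.

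To compare lists of unequal length, covered lengths were scaled to the same total per list and expressed as log2 of kb plus 1. On that scale Plxdc2 changed by -2.58 in 129O1 and -3.21 in EpiSC5 (OL minus OPC), a mean of -2.90 ± 0.22 (limma SE, n = 2 lines). Dpyd changed by -2.72 and -3.03, a mean of -2.88 ± 0.22. Lancl3 changed by -2.64 and -1.63, with a mean of -2.13 ± 0.29, and was the member on which the lines differed most. Arhgap26 changed by -1.63 and -2.24, with a mean of -1.93 ± 0.19. Mmp15 changed by -1.49 in both lines, and Adam12 by -1.59 and -1.25 with a mean of -1.42 ± 0.18. The median change over all genes tested was -0.21. Expressed as a share of the scaled OPC length, OL kept 10.9% in 129O1 and 3.2% in EpiSC5 at Plxdc2 and 5.99% and 2.4% at Dpyd. Mmp15 kept 31.3% and 30.9%, the most even pair, while Lancl3 kept 0% and 20.9%, the least even. Adam12 kept 27.6% and 37.1%, and Arhgap26 30.7% and 19%.

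The name of largest losses held for some of the 6 genes only. Ranked by the change over body plus 50 kb among 16275 genes, Plxdc2 was number 2 and Dpyd number 4, but Lancl3 was 62, Arhgap26 113, Mmp15 388 and Adam12 462. Chrm3, a muscarinic receptor gene, ranked just ahead of Plxdc2 with -3.88. Spry4, which encodes an inhibitor of receptor tyrosine kinase signalling, stood between Plxdc2 and Dpyd, and Igfbp3 with -2.86 followed Dpyd. Igdcc4 with -2.14 and Adora1 with -2.13 were next to Lancl3, and 1700010I14Rik with -1.94 and Gm3500 with -1.93 next to Arhgap26. Mmp15 stood between Snrpn and Kcnab2, and Adam12 between Slc25a54 and Uxs1. With 10 kb on each side in place of 50, ranks among 12459 genes were 4 for Plxdc2, 6 for Dpyd, 8 for Lancl3 and 10 for Mmp15, but 89 for Arhgap26 and 503 for Adam12. In scaled kb, which favours large windows, Arhgap26 was at rank 5 with a change of -28.2 kb, followed by Plxdc2 with -12.1 kb at rank 102. Adam12 thus had a clear loss in both lines without being among the largest on any of the 3 scales, where its rank was 270 in kb. All 6 genes were called narrower by limma (adjusted p under 0.05 and the same sign in both lines), a call that took 22.5% of genes tested, and 14.6% were called wider. Because the genes were chosen on this contrast nothing is read from that count. Without scaling of the lists the calls over all genes were 3094 wider and 2998 narrower, against 2383 wider and 3659 narrower with it, and the median change was -0.09.

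**Figure D2:**
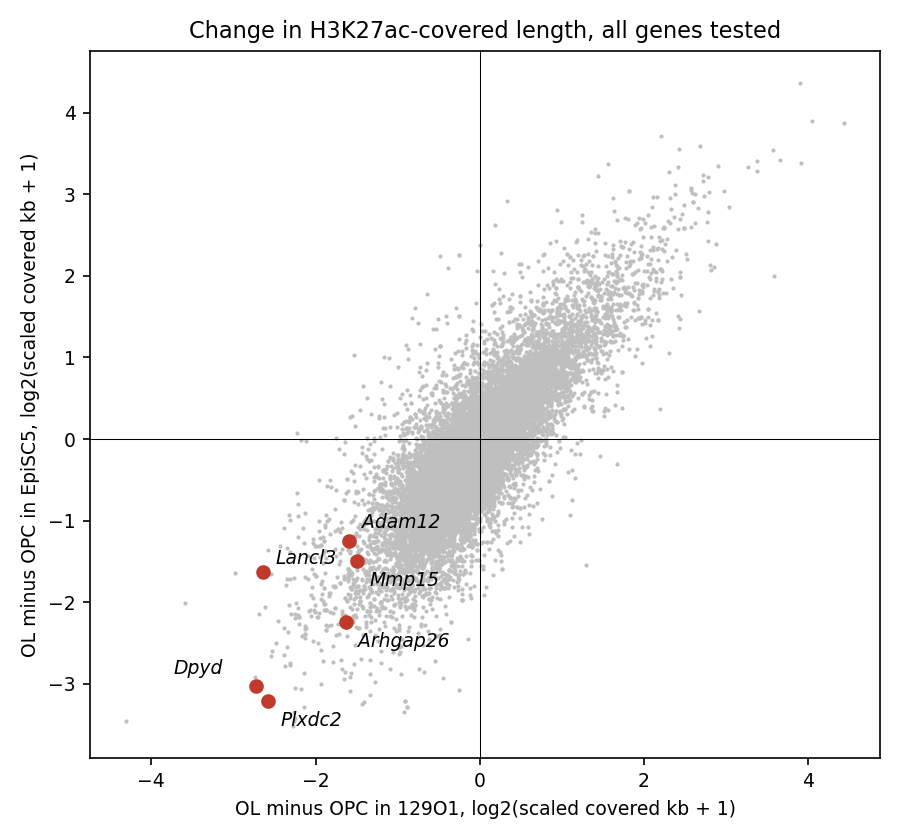
Change in H3K27ac covered length (OL minus OPC, log2 of scaled kb plus 1) in 129O1 on one axis and EpiSC5 on the other, for all 16275 tested genes in the background and the 6 genes as named points. Plxdc2 and Dpyd lie at the far low end in both lines, at -2.58 and -3.21 and at -2.72 and -3.03, whereas Mmp15 and Adam12 lie inside the cloud of narrower genes.

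Overlapping H3K27ac peaks were joined across the 4 lists to see where the loss lay. The 6 windows held 78 regions. Of these 5 were in both OL lists and no OPC list, 34 in both OPC lists and no OL list, and 10 in all 4 lists. The remaining 29 were in other combinations. Among all 49676 regions of the genome 16.7% were of the OL-only and 11.1% of the OPC-only kind, against 6.41% and 43.6% in the 6 windows, shares that follow from how the genes were chosen. OPC-only regions in the 6 windows had a median width of 1362 bp, against 1144 bp for all OPC-only regions. Plxdc2, Dpyd, Lancl3 and Mmp15 had no OL-only region, while Adam12 had 1 and Arhgap26 had 4.

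At Plxdc2, 6 of 10 regions were OPC-only, spread through the gene and its lower flank. The widest spanned 3658 bp from 16605713 to 16609370, with 3658 bp covered in OPC of 129O1 and 1584 bp in OPC of EpiSC5. Another of 1925 bp ran from 16447464 to 16449388. The region at the lower end of the gene, from 16355071 to 16359261, was cut back and not lost in 129O1, with 883 bp in OL against 4191 bp in OPC. In EpiSC5 it had 0 bp in OL against 1914 bp in OPC. The 1 region in all 4 lists, from 16682909 to 16683342, was of similar width in both states, with 403 and 363 bp in OL against 363 and 370 bp in OPC.

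Dpyd also had 6 OPC-only regions among 10. The widest ran from 118674310 to 118676222 and had 1913 bp in OPC of 129O1 and 1038 bp in OPC of EpiSC5. The next, from 119070046 to 119071788, had 1737 and 1520 bp. The 1 region present in all 4 lists, from 119172843 to 119174853, had 625 and 207 bp in OL against 2011 and 1344 bp in OPC, and was all of the acetylation left in OL across the 971 kb window. All acetylated regions of this window lay within the body of Dpyd, and no other protein-coding gene overlapped the window.

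At Lancl3 the loss was mostly 1 region. From 9200057 to 9203491, just inside the gene, 3435 bp were covered in OPC of 129O1 and 3252 bp in OPC of EpiSC5, with none in either OL list. A second OPC-only region from 9271831 to 9273225 touched the neighbouring gene Xk and had 1395 and 1143 bp in OPC. Within the body of Lancl3 itself OL had 0 kb in both lines, against 4.27 and 3.73 kb in OPC. The 1.19 kb that OL of EpiSC5 held in the window therefore lay outside the gene.

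At Mmp15 only 1 of 9 regions was OPC-only and 3 were in all 4 lists, and the widest losses were at regions that OL of 129O1 kept in small part. The OPC-only region, from 95348454 to 95349841, had 1388 bp in OPC of 129O1 and 426 bp in OPC of EpiSC5. The region over its start, from 95351607 to 95355069, had 724 bp in OL of 129O1 and 0 bp in OL of EpiSC5, against 3463 and 1935 bp in OPC. The region over its other end, from 95373054 to 95377623, had 252 and 0 bp in OL, against 4570 and 2732 bp in OPC. Part of what OL kept in the window belonged to the neighbours. The body of Usb1, which encodes an RNA-processing exonuclease, had 1.61 and 2.03 kb in OL against 1.67 and 1.5 in OPC, and that of Zfp319 had 1.01 and 0.936 kb against 1.08 and 0.975 kb. With the bodies of other protein-coding genes left out, an alternative chosen after seeing the data, Mmp15 had 2.97 and 1.53 kb in OL, against 13.6 and 9.28 in OPC, and the change was -2.07 in place of -1.49.

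Adam12 had 4 OPC-only regions of 9, led by one of 5405 bp from 134223658 to 134229062 that lies across the upper end of the gene. It had 5405 bp in OPC of 129O1 and 3675 bp in OPC of EpiSC5, and none in OL. The next widest, from 134202465 to 134204067, had 1393 and 1438 bp in OPC. The loss was not uniform along the gene. The region from 134180679 to 134182486 was OL-only, with 718 and 1808 bp. The regions from 134013620 to 134015848 and from 134025990 to 134027591 were in all 4 lists, the first with 1763 and 1496 bp in OL against 1929 and 386 bp in OPC. The kept regions thus lay inside the gene, and the widest lost one at its upper end. The neighbouring D7Ertd443e moved the other way, with 3.35 and 6.18 kb over its body in OL against 1.16 and 1.05 kb in OPC.

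Arhgap26 had 35 regions, of which 14 were OPC-only, 4 OL-only and 3 in all 4 lists. Its window is shared with genes that lost acetylation too. Spry4 had 0.930 and 0 kb over its body in OL, against 6.87 and 4.95 kb in OPC. Fgf1, a growth factor gene within the borders of Arhgap26, had 0.256 and 0 kb in OL, against 9.80 and 5.58 in OPC, and holds the widest OPC-only region of the window, 6391 bp from 38902747 to 38909137. The next widest, from 38889485 to 38891201, also overlaps Fgf1 and had 1717 and 1061 bp in OPC. The region from 38595846 to 38603368 spans Spry4 and the lower end of Arhgap26 and had 1493 and 0 bp in OL, against 7478 and 6232 bp in OPC. With the bodies of other protein-coding genes left out, Arhgap26 had 12.5 and 4.51 kb in OL, against 23.3 and 16.7 in OPC. The change was then -1.40, with -0.90 in 129O1 and -1.90 in EpiSC5, in place of -1.93. Losses at Arhgap26, Fgf1 and Spry4 cannot be told apart where their windows overlap. Nr3c1, the glucocorticoid receptor gene at the far side, had 3.31 and 2.95 kb in OL against 4.39 and 3.95 in OPC.

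**Figure D3:**
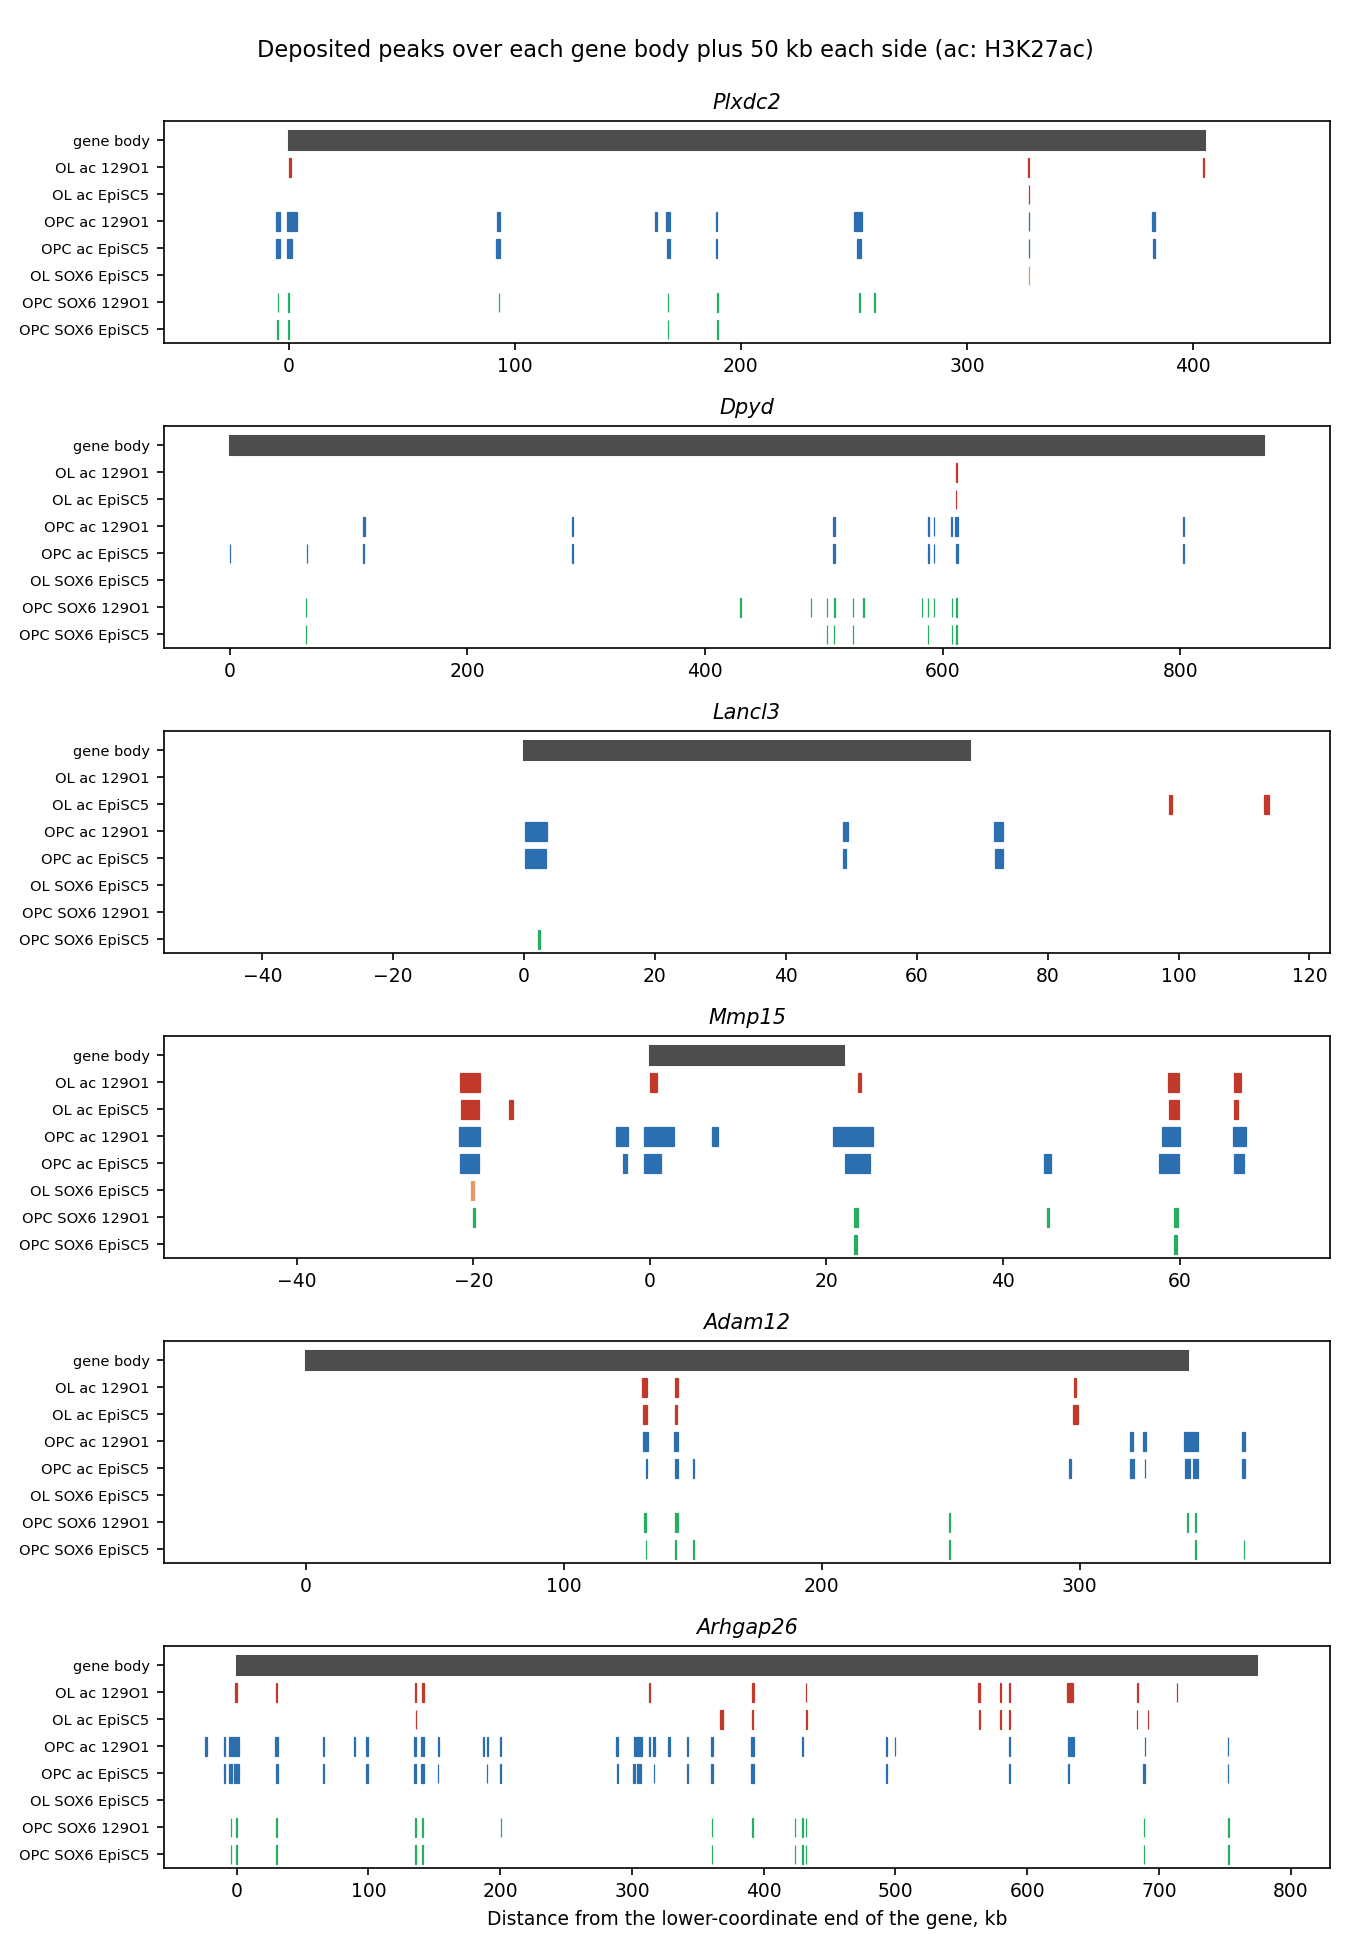
Positions of H3K27ac and SOX6 peaks along each of the 6 gene windows, with 1 row per list, OL rows above the OPC rows of the same target, and distance from the lower end of the gene in kb on the horizontal axis. The OPC rows carry between 3 and 29 H3K27ac peaks per gene and line, the OL rows between 0 and 13, and OL SOX6 peaks appear only at Plxdc2 and Mmp15 with 1 each. All OPC SOX6 peaks of Dpyd but 1 per line, near the lower end, lie in 1 stretch of the gene body that ends at the region still acetylated in OL.

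Promoter sequences were found in the RefSeq promoter table (GRCm38.p6, the assembly of mm10) for Dpyd, Lancl3 and Mmp15, and show where the peaks lie relative to the start. They are printed for the 250 bases before the table's start, all on the + strand, at chr3:118561930-118562179 for Dpyd, chrX:9199723-9199972 for Lancl3 and chr8:95352046-95352295 for Mmp15. Capitals mark the core SOX motif ACAAT or its reverse ATTGT, and the GC box GGGCGG or its reverse CCGCCC. No SOX core overlapped a GC box in these sequences.
Dpyd: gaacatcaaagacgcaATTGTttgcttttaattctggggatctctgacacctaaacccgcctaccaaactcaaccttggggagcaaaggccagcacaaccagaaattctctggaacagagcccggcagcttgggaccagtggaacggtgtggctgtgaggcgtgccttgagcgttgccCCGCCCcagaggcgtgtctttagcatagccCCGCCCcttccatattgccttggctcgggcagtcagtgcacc
Lancl3: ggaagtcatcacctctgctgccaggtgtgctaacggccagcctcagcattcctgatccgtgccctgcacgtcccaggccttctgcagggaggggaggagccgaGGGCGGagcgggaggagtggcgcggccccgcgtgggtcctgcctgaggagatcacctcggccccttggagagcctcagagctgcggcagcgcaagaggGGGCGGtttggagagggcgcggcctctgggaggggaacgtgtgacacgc
Mmp15: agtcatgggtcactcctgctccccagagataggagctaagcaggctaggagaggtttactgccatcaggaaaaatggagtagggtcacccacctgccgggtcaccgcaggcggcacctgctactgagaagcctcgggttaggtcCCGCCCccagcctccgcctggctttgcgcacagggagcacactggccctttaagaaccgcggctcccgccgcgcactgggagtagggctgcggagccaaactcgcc
Dpyd had 1 SOX core and 2 GC boxes, Lancl3 had 2 GC boxes and Mmp15 had 1, and neither Lancl3 nor Mmp15 had a SOX core. Among 32851 promoter sequences of the same length, 27.7% had a SOX core and 32.7% a GC box. The 3 promoters differed in acetylation. With the 50 bases after the start included, Mmp15 had 18 and 0 of 300 bases covered in OL, against 300 and 300 in OPC. Lancl3 had no base covered in any list, although its widest OPC-only region began just downstream. Dpyd had 0 and 0 bases covered in OL, against 0 and 66 in OPC, so its acetylation in OPC lay almost wholly in the body and not at this start. No SOX6 peak touched any of the 3 promoters.

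SOX6 peaks were not used to choose the genes. In OPC they were present at all 6 genes in EpiSC5 and at all but Lancl3 in 129O1. Plxdc2 had 0.167 kb covered by SOX6 in OL of EpiSC5, against 2.3 and 0.998 in the OPC lists of 129O1 and EpiSC5. Dpyd had 0 kb in OL, against 3.62 and 2.12 in OPC. Adam12 had 0 kb in OL, against 2.50 and 1.79 in OPC, and Arhgap26 0 kb against 4.64 and 4.17 kb. Mmp15 had 0.366 kb in OL, against 1.32 and 0.762 in OPC. Lancl3 had 0 kb in OL, against 0 and 0.223 in OPC, the least of the 6. Among all 21887 protein-coding genes, 29.6% had SOX6 in OL in a window built the same way, against 67.4% in OPC of 129O1 and 55.7% in OPC of EpiSC5. Long windows have more room for a peak. Per 100 kb of window, Mmp15 stood above 88.7% of genes in OPC of 129O1 and 86.0% in OPC of EpiSC5, with 1.08 and 0.625 kb. Arhgap26 stood above 68.0% and 79.0%, Adam12 above 69.8% and 74.5%, Plxdc2 above 62.9% and 54.1% and Dpyd above 57.1% and 57.5%. Lancl3 had none in 129O1 and stood above 46.8% in EpiSC5. SOX6 density thus ranged over the 6 genes from Lancl3, with none in 129O1, through the middle of all genes at Dpyd, to high in the window of Mmp15. The body of Mmp15 itself had 0 kb of SOX6 in every SOX6 list, and all peaks of its window lay in the flanks.

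Counted as peaks, the 6 windows held 2 SOX6 peaks in OL of EpiSC5, against 43 in OPC of 129O1 and 31 in OPC of EpiSC5. Of the 31 OPC peaks in EpiSC5, 28 (90.3%) overlapped a peak of 129O1, the same share as in the whole list (90.3%). Of the 43 in 129O1, 28 (65.1%) overlapped a peak of EpiSC5, against 60.8% of the whole list. None of the 31 overlapped an OL peak of the same line. Taking 3 peaks as an approximate upper limit for a count of 0 allows a share of up to 9.68%. The whole list had 9.61%, close to that limit, so 31 peaks cannot decide whether the share differed. In 129O1, 29 of 43 (67.4%) lay in H3K27ac of the same cells, against 69.4% of the whole list, and in EpiSC5 21 of 31 (67.7%), against 68.0%. Dpyd had the lowest share of the members with a peak, 5 of 12 (41.7%) in 129O1 and 3 of 7 (42.9%) in EpiSC5, against 69.2% or more and 63.6% or more at the other members with peaks. In 129O1, 11 of its 12 peaks had their summits between 429.9 and 611.8 kb from the lower end of the gene. That contrast within the 6 was noticed after the values were seen and was not tested.

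The strongest OPC SOX6 peaks of the members were ranked by the authors' fold enrichment, which is used here only within a list. At Dpyd the peak from 119149679 to 119150016 had a fold of 11.0 in 129O1, above 90.4% of its list. The region of Dpyd that remained acetylated in OL had a SOX6 peak of fold 10.7 in OPC of 129O1 and 9.18 in OPC of EpiSC5, the strongest in that list at this gene. It had no SOX6 peak in OL. At Adam12 the strongest SOX6 peak lay in both lines in the 5405 bp region at the upper end of the gene, with folds of 8.87 and 10.1. At Mmp15 it lay in both lines beyond the gene, in the region over its end, with folds of 7.48 and 6.06. At Arhgap26 the strongest peaks ran from 38736968 to 38737446 with a fold of 11.7 in 129O1 and from 38742478 to 38743006 with 9.75 in EpiSC5. At Plxdc2 the peak from 16545044 to 16545558 had a fold of 8.72 in 129O1, and the strongest in EpiSC5, from 16350824 to 16351082, had 5.08. Lancl3 had 1 weak peak of fold 4.02 in EpiSC5, above 28.7% of its list.

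SOX6 was then set against the regions that OPC alone held. Of the 34 OPC-only regions in the 6 windows, 8 (23.5%, exact 95% binomial interval 10.7% to 41.2%) overlapped SOX6 peaks of OPC in both lines, against 28.6% of the 5456 OPC-only regions elsewhere. In 129O1 the count was 12 (35.3%), against 39.9% elsewhere, and in EpiSC5 10 (29.4%), against 31.9% elsewhere. SOX6 of either line was found in 14 (41.2%), against 43.3% elsewhere. The interval contains the share elsewhere, so no difference was detectable with 34 regions, and regions of 1 gene are not independent. Which of the 2 shares was higher also changed with the processing. When acetylation had to cover 50% of a region to count as present, the share was 41.2% in the 6 windows, against 34.5% of all OPC-only regions. Of the 10 regions in all 4 lists, 5 (50.0%, interval 18.7% to 81.3%) had OPC SOX6 in both lines, against 41.5% of such regions in the genome. No OPC-only region of the 34 had SOX6 in OL. Among all 5490 OPC-only regions the share was 0.346%, so this overlap was rare everywhere. By gene, SOX6 of both lines was found in 3 of 6 OPC-only regions at Plxdc2, 2 of 6 at Dpyd, 0 of 3 at Lancl3, 0 of 1 at Mmp15, 1 of 4 at Adam12 and 2 of 14 at Arhgap26.

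**Figure D4:**
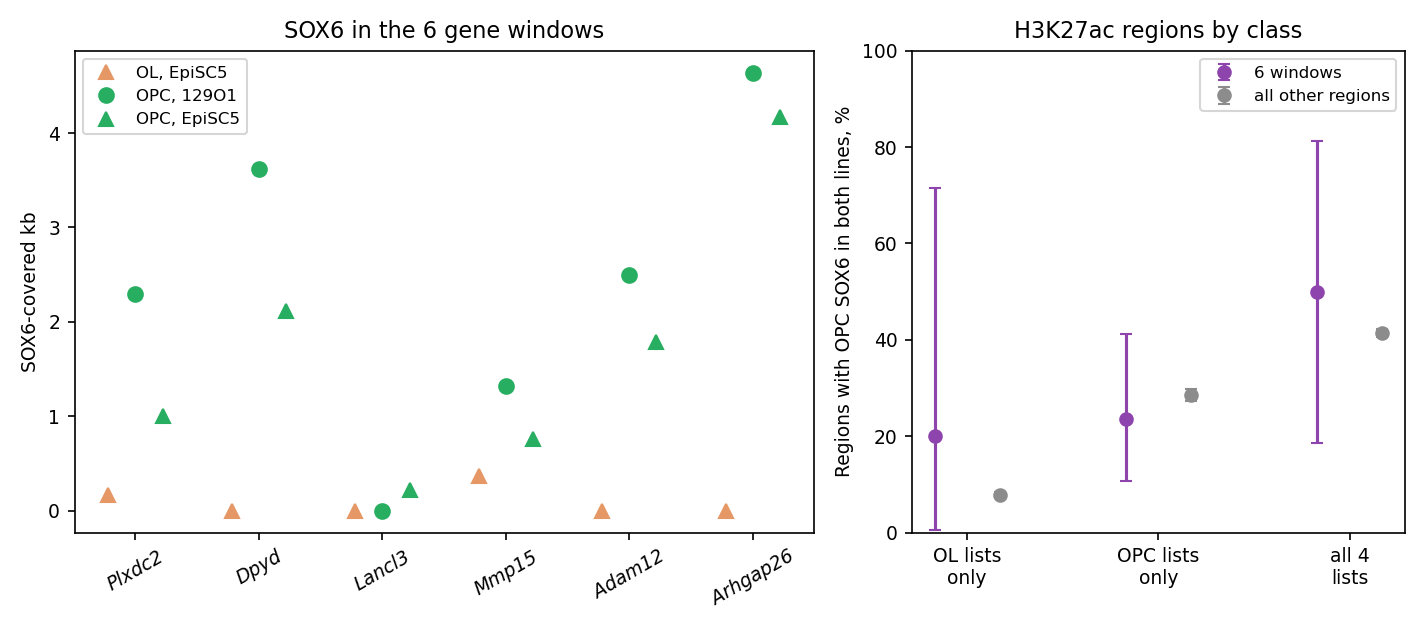
SOX6 at the 6 genes, as covered kb per gene and list (OL of EpiSC5 left of OPC) and as the percent of H3K27ac regions that overlap OPC SOX6 in both lines for the 6 windows and for all other regions, with exact 95% binomial intervals as bars. OL values lie between 0 and 0.366 kb, OPC values between 0 and 4.64 kb, and the share of OPC-only regions is 23.5% in the 6 windows against 28.6% of the 5456 elsewhere.

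The difference between the cell lines was not part of the choice of genes. It was tested with OL and OPC of each line in 1 limma fit over all 16275 genes. OL and OPC of a line stood in as its replicates, so the p-values do not reach beyond these lists. None of the 6 genes passed. Plxdc2 averaged 2.66 in 129O1 and 2.07 in EpiSC5 on the log2 scale, a difference of 0.59 ± 0.22 (129O1 minus EpiSC5, SE) with a limma p of 0.0272 and an adjusted p of 0.496, higher in 129O1 in both states. Arhgap26 averaged 4.53 in 129O1 and 4.08 in EpiSC5, a difference of 0.45 ± 0.19 with a limma adjusted p of 0.549. Lancl3 averaged 1.32 in 129O1 and 1.97 in EpiSC5, a difference of -0.65 ± 0.29 with a limma adjusted p of 0.574. Dpyd, Mmp15 and Adam12 had differences of 0.20 ± 0.22, 0.09 ± 0.16 and -0.16 ± 0.18, with limma adjusted p between 0.833 and 0.905. Only 16 genes (0.0983% of those tested) were called between the lines. At all 6 genes the line difference was larger in size in OL than in OPC. It was 0.91 in OL against 0.28 in OPC at Plxdc2, -1.16 against -0.14 at Lancl3 and 0.75 against 0.14 at Arhgap26. At Dpyd it was 0.36 against 0.05, at Adam12 -0.33 against 0, and at Mmp15 0.10 against 0.09, nearly equal. That difference between states has no replicate and was not tested. An unpaired exact test of the 2 lists of 1 line against the 2 of the other cannot go below p = 0.33.

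The relatives of the 6 genes did not move as a block. The other 27 genes of the 6 families were listed with earlier results of these data known, and 24 had enough coverage to be tested, of which 8 were called narrower, 3 wider and 13 neither, against 22.5% narrower and 14.6% wider of all genes tested. Their median change was -0.45, against -0.21 over all genes. Among the membrane-type metalloproteinases, which act on matrix at the cell surface, 4 of 5 besides Mmp15 fell, against the same 22.5% of all genes. Mmp25 had 2.8 and 0 kb in OL, against 6.28 and 4.2 in OPC, a change of -1.79 ± 0.36 (limma adjusted p = 0.00854). Mmp14, an activator of gelatinase A, changed by -0.93 (limma adjusted p = 0.0193), Mmp16 by -0.77 and Mmp17 by -0.74, while Mmp24 had -0.35 and was not called. The median of the 5 was -0.77.

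The ADAM genes split. Adam9, Adam15, Adam22 and Adam10, the last an alpha-secretase and Notch sheddase, fell, with changes between -0.77 and -0.64. Adam11, a neural family member without protease activity, rose to 10.9 and 12.4 kb in OL, against 2.08 and 1.33 in OPC, a change of 2.14 ± 0.21 (limma adjusted p = 0.000607). Adam28 with 1.12 and Adam17, the TNF-converting enzyme, with 0.53 also rose, and Adam8 and Adam19 were not called. Near relatives of the other members did not pass the test. Plxdc1 had -0.18, Lancl1 had -0.63 and Lancl2 -0.83 (limma adjusted p = 0.0511). Of the GRAF family, Arhgap10 had -0.27 and Arhgap42 had -0.13. Of the enzymes that follow Dpyd in pyrimidine breakdown, Dpys had -0.30 and Upb1 had 0.28, and among the phosphorylases Upp2 had 0.22 and Tymp -0.63. Dpyd was thus the 1 gene of its pathway list with a call, and it was chosen for it.

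**Figure D5:**
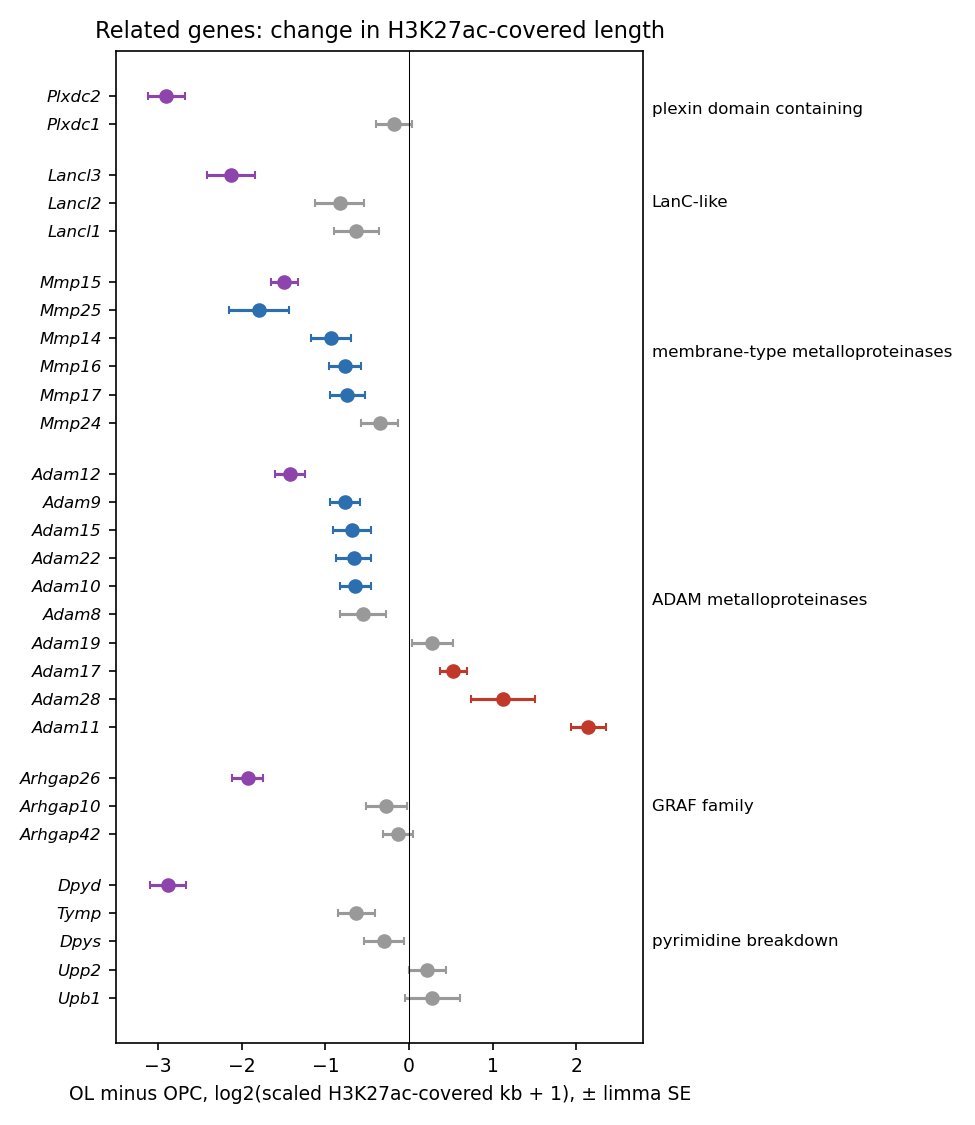
Change in H3K27ac covered length (OL minus OPC, log2 of scaled kb plus 1, with limma SE) for the tested genes of the 6 families that are reported here, with the 6 chosen genes in purple, and their relatives in blue where called narrower, red where called wider and grey where not called. The chosen genes lie between -2.90 and -1.42, and the relatives between -1.79 (Mmp25) and 2.14 (Adam11).

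Genes with the most similar pattern were found by the Euclidean distance over the 7 lists of log2 scaled kb plus 1, a measure of likeness in level and pattern. Nearest to Plxdc2 were Igfbp3 and Spry4, both at 1.08, and nearest to Dpyd were Ntn4 and Csrnp3, both at 1.1. Lancl3 was nearest to Raet1e at 0.648 and Fbxo48 at 0.781. Mmp15 was nearest to Acbd4 and Hexim1, 2 genes with the same coverage in their windows, at 0.644. Adam12 had the closest match of all, Etv1 at 0.469, followed by Agbl1 at 0.507. Etv1, which encodes an ETS transcription factor, had 3.55 and 4.73 kb of H3K27ac in OL, against 11.6 and 10.2 kb in OPC. Arhgap26 was nearest to Dgki at 0.632 and Ptn at 0.850. Ptn, which encodes the secreted growth factor pleiotrophin, had 8.12 and 6.63 kb in OL, against 35.6 and 23.7 in OPC. The 7 lists are too few to read shared control from such distances.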

How the data were processed

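The deposited data are 7 peak lists on mm10, each from 1 library. Bowtie2 2.3.2, Trim Galore 0.3.1, bedtools, deepTools and Picard are named in the submitters' processing notes. Peak caller and control: not given in the sources used here. The authors' score, fold enrichment (a ratio over background), −log10 p and −log10 q per peak were deposited with each list and were used to describe peaks and to filter them by rank within it. The 2 input samples were not analysed here. Which of the stated sequencers ran each library is not given, so no batch could be examined.

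Covered length was computed per RefSeq gene (GRCm38.p6) with 50 kb each side, brought to the same genome-wide total in every list, and fitted as log2 of kb plus 1 in limma 3.58.1 (R 4.3.3, trend, terms line and state, 1 residual degree of freedom, prior 7.11) where the mean reached 1 kb, with Benjamini-Hochberg adjustment. SE and adjusted p come from that fit, and p-values reflect the spread among these lists only. The line was a term because OL and OPC share it. The correlation across genes of the line difference in OL with that in OPC was 0.268. Regions were merged peaks of the 4 H3K27ac lists, and overlap was at least 1 bp. Binomial intervals cover counting error of regions only.

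The members and gene lists were chosen with earlier results of these data known. Genes named are the 6, the other members of their families, coding genes within 50 kb, the 2 nearest in pattern and those ranked next to them. Regions named are the 2 widest OPC-only per gene (1 at Mmp15, which has no other), and others were picked once their values were known. The family counts include 1 gene whose own values are not reported here. Alternatives were another window, pseudocount, filter, scaling, overlap rule and model, and shorter lists.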

Additional observations from a re-analysis of the deposited data

Results flagged for a closer look

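In 4 relatives of the 6 genes the change in H3K27ac covered length (OL minus OPC, log2 of scaled kb plus 1) had opposite signs in the lines, and the difference between the lines was not tested. Plxdc1 had 0.24 in 129O1 and -0.61 in EpiSC5. Arhgap10 had -0.71 in 129O1 and 0.16 in EpiSC5, and Arhgap42 had -0.33 and 0.07. Upp2 had -0.15 in 129O1 and 0.59 in EpiSC5. None of the 4 was called in either direction by limma over both lines.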

How the results depend on the processing

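The OL minus OPC change of the 6 genes, whose sign the choice of genes fixes, ranged over the alternatives from -3.63 to -2.51 at Plxdc2, -3.93 to -2.17 at Dpyd, -3.25 to -1.63 at Lancl3, -2.66 to -1.36 at Mmp15, -1.59 to -0.74 at Adam12 and -2.52 to -1.40 at Arhgap26. With the higher-scoring 50% of each list Adam12 had -0.90 and was no longer called, and Lancl3 fell under the coverage minimum. Genes called wider and narrower numbered 1562 and 2041 with a 10 kb window, 1374 and 1014 over the body alone, 1154 and 1155 with the higher-scoring 50%, and 0 and 0 (the 6 genes included) by limma with no filter on low coverage, where 5882 genes had an unadjusted p under 0.05. Without the replicate block for the cell line they numbered 1886 and 2454.

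Genes called higher in 129O1 numbered 14 and in EpiSC5 2. They became 9 in 129O1 with a 10 kb window, 4 and 1 with a pseudocount of 0.25 kb, 9 and 1 with a filter of 3 kb, and 33 in 129O1 without scaling. By limma they were 0 and 0 over the body alone, with no filter and with the higher-scoring 50%, where 638, 1031 and 737 genes had an unadjusted p under 0.05. The line difference changed sign at Dpyd with equal numbers of peaks per list (-0.09) and at Adam12 without scaling (0.10), and no member was called in any alternative fitted in limma.

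OL-only regions in the 6 windows numbered 2 with a 50% overlap rule, 1 with the higher-scoring 50%, 3 with equal numbers of peaks, and 7 to 10 from 1 line. OPC-only regions numbered 10 with the higher-scoring 50% and 43 to 46 from 1 line. The share of OPC-only regions with SOX6 of both lines was 41.2% with the 50% rule, against 34.5% of all OPC-only regions. It was 40.0% against 28.4% with the higher-scoring 50%. With 1 line alone, both the OPC-only class and SOX6 were taken from that line, a looser measure than that of both lines. On it the share was 34.8% against 27.1% without 129O1 and 32.6% against 33.5% without EpiSC5. The place of the share above or below that of the genome was thus not stable. The summed OPC SOX6 length, 12.2 kb as the mean of the lines, was 7.22 kb with the higher-scoring 50% and 3.54 kb with equal numbers of peaks. Both alternatives keep fewer OPC SOX6 peaks, so a shorter length follows from how they are made. With equal numbers of peaks OPC had 3.72 and 3.36 kb in 129O1 and EpiSC5, against 0.533 kb in OL of EpiSC5. The cause of the other shifts was not tested. Depth is unknown, so absence of a peak and too few reads cannot be told apart.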

Other observations

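At Plxdc2, OL of EpiSC5 had its only SOX6 peak of the window in the 1 region acetylated in all 4 lists, from 16682970 to 16683136 with a fold of 5.00, where neither OPC list had a SOX6 peak. At Mmp15 the only OL SOX6 peak, from 95332034 to 95332399 with a fold of 4.04, lay in a region of all 4 lists over Zfp319 and Usb1, from 95330730 to 95333080, where OPC of 129O1 had a peak of fold 2.87. Both OL peaks in the 6 windows thus lay in acetylation shared by OL and OPC. In the genome too, OL SOX6 was found more often in regions of all 4 lists (15.4%) than in OL-only (3.53%) or OPC-only regions (0.346%). The position of the peaks is therefore not read as particular to the 6 genes. These peaks were picked once their values were known, and OL SOX6 has no replicate.

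Arhgap26 held 4 OL-only regions within a window that lost acetylation, the widest from 39164134 to 39166107 with 1974 bp in OL of 129O1 and 901 bp in OL of EpiSC5. Another, from 39033411 to 39034283 with 265 and 873 bp, overlapped SOX6 peaks of OPC in both lines, where OPC itself had no acetylation peak. It was the 1 OL-only region of 5 in the 6 windows with such an overlap (20.0%, exact binomial interval 0.505% to 71.6%). The share among OL-only regions in the genome was 7.79%, inside that interval, so no difference was detectable with 5 regions. The region was picked once its values were known.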
